A study of Rattus norvegicus with 11 samples.

Results

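Heat shock proteins and other chaperones fold new proteins and refold damaged ones, and their transcripts are a common readout of stress in handled tissue. Described here are 10 listed genes of this class in rat adrenal tissue: Hspa1b, Hspa5, Hspa8, Hsp90aa1, Hsph1, Hspb1, Dnajb1, Bag3, Hspd1 and Hspe1. Each gene was taken through array probe sets that the platform annotation pairs with a single gene symbol, and of several such probe sets the one with the highest mean signal was used. By this rule 9 of the 10 genes were measured, of 14506 genes with such a probe set. Hspa1b had no probe set of its own. The probe set that names it (10828154) also names Hspa1a and Hspa1l, so its signal is given separately below and is not assigned to any of the 3 genes.

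The samples were 11 one-colour Affymetrix arrays, 1 for each biological replicate. Lesions of the adrenal came from 7 rats heterozygous for a mutation of the gene of p27Kip1, a cyclin-dependent kinase inhibitor (written Cdknb1 in the labels), and normal adrenal glands came from 4 wild-type rats. All rats were of the strain labelled Sprague–Dawley white eye/Wistar–Kyoto, were housed specific-pathogen-free and had no treatment. The older lesions came from 1 female of 23 months and 2 males of 21 months, and the younger lesions from 2 females and 2 males of 13 months. The older normal glands came from 1 female and 1 male of 24 months and the younger ones from 1 female and 1 male of 12 months. Genotype and lesion cannot be told apart in these samples, since all lesions are from mutants and all normal glands from wild-type rats. The labels used here state neither the delay between death and sampling nor the handling time.

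Values are log2 signal after the authors' robust multi-array averaging (RMA), so a difference of 1 is a doubling. Array medians lay between 4.91 and 5.01. Lesion 1, the older female, stood apart from the rest: its median correlation with the other arrays was 0.971, against 0.980 to 0.987 for the other arrays. Its mean over 11 adrenal cortex markers was 8.90, against 9.70 to 10.60 on the other arrays, and its mean over 13 chromaffin cell markers was 10.88, against 9.40 to 10.34. Markers of both adrenal compartments were thus present on each array, in unequal amounts. In bulk tissue, fewer cells of a type and less RNA per cell cannot be told apart. The p-values below measure the spread between these arrays.

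When unfolded protein builds up in the cytosol, heat shock factor 1 (Hsf1) binds heat shock elements, arrays of the unit GAA in alternating orientation. It then switches on Hspa1b, Hsph1, Hspb1, Dnajb1, Bag3, Hsp90aa1 and other genes. In the endoplasmic reticulum (ER) a separate pathway, the unfolded protein response, acts through the ER stress element on Hspa5, which encodes the ER chaperone BiP. Mitochondria have their own chaperonin, made of the products of Hspd1 and Hspe1.

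The promoter stretches with matches to either element are printed first, for the genes on which the results turn. RefSeq promoters (rat assembly GRCr8, the 250 bases before each gene's annotated start) were found for 8 of the 10 genes, all but Hsp90aa1 and Hspa1b. Capitals mark matches to a heat shock element of 2 units (TTCNNGAA or GAANNTTC) or 3 units (TTCNNGAANNTTC, searched on both strands, which contains the shorter ones), and in Hspa5 the ER stress element (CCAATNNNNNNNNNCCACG, both strands). Each line is written 5′ to 3′ on the gene's strand.
Hspa8: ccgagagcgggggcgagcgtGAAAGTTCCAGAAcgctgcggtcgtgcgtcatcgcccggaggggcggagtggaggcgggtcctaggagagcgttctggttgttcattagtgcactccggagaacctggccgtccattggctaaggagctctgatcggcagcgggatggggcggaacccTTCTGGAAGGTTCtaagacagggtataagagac
Hsph1: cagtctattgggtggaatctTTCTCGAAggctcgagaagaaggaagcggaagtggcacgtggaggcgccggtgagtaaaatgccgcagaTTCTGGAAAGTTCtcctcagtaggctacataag
Hspe1: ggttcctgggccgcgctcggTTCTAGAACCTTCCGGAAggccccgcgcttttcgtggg
Bag3: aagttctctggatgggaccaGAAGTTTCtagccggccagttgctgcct
Dnajb1: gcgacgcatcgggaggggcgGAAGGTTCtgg
Hspa5: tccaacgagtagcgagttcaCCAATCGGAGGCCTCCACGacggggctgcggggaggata
These stretches lie at chr8:50080281-50080491 (Hspa8, plus strand), chr12:10427243-10427364 (Hsph1, plus strand), chr9:64084242-64084299 (Hspe1, plus strand), chr1:192533308-192533355 (Bag3, plus strand), chr19:41431142-41431172 (Dnajb1, minus strand) and chr3:38452953-38453011 (Hspa5, plus strand), all upstream of the annotated start.

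A 3-unit element was found in 4 of the 8 promoters (Hspa8, Hsph1, Hspd1 and Hspe1), against 0.663% of all 33469 promoters of the table. A 2-unit element was found in 7 of the 8, against 4534 of the 33469, the added genes being Hspb1, Dnajb1 and Bag3. Hspd1 and Hspe1 lie head to head with starts 290 bases apart, and the element printed for Hspe1 is the same stretch of DNA as the one upstream of Hspd1. Hspa5 had no heat shock element in its window and was the only one of the 8 with the ER stress element, which 0.066% of all promoters held. A match describes these letters only.

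Setting lesions against normal glands asks whether the mutant's lesions and wild-type tissue carried different amounts of these stress transcripts. None of the 9 measured genes passed the test across all probe sets (limma, Benjamini-Hochberg adjusted p under 0.05), and for each of them the values of lesions and normal glands overlapped. Across the array 19 of 29214 probe sets were called, 0.065%, all of them lower in lesions. All lesions lay above all normal glands in 0.479% of probe sets and below them in 0.695%. The median difference of the 9 genes was -0.04, against -0.003 over all 14506 genes, with 4 genes above 0 and 5 below. Their differences ran from -0.73 to 0.48.

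**Figure D1:**
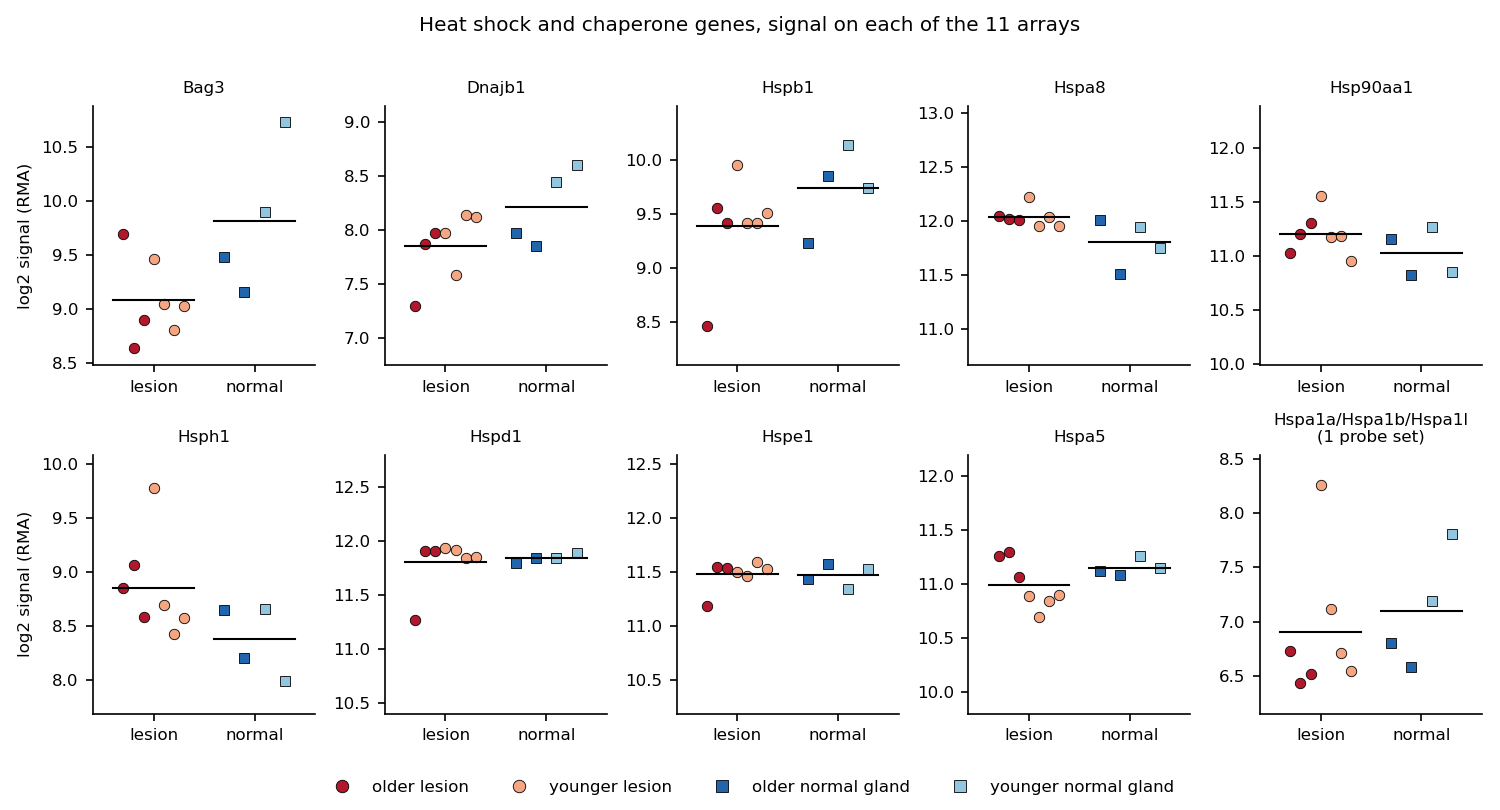
Log2 signal (y axis, each panel spanning the same 2.4 log2 units) of the 9 measured genes and of the probe set shared by Hspa1a, Hspa1b and Hspa1l on each array; circles are lesions, squares normal glands, dark symbols rats of 21 to 24 months, pale symbols rats of 12 to 13 months, and lines group means. Bag3 is highest in the younger normal glands, Hspa5 separates older from younger lesions, and lesion 1 is the low point for Hspd1, Hspe1 and Hspb1.

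Bag3, a co-chaperone that releases bound protein from HSP70 and directs it to autophagy, had the largest difference among the 9. Its log2 signal in lesions ran from 8.63 through a median of 9.03 to 9.69, and in normal glands it was 9.48, 9.16, 9.89 and 10.72. The younger normal glands were the highest of all arrays, while both older normal glands lay within the range of the lesions. The difference was -0.73 (SE 0.28, 95% CI -1.34 to -0.13, limma adjusted p = 0.534), 1.66-fold lower in lesions. Without normal replicate 4 it was -0.43. Among the rats of 12 to 13 months, lesions (8.81 to 9.46) and normal glands did not overlap (difference -1.22, SE 0.27, limma adjusted p = 0.531 in a fit of those arrays alone). In that subset of 4 and 2 arrays, 5.54% of all probe sets had every lesion below every normal gland. Among the rats of 21 to 24 months the difference was -0.24 (SE 0.34), with overlapping values.

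Dnajb1, the HSP40 partner that hands substrates to HSP70 and stimulates its ATPase, ran lower in lesions by a smaller margin. Lesions ran from 7.30 through a median of 7.98 to 8.14, and normal glands were at 7.98, 7.86, 8.44 and 8.61. As with Bag3, the younger normal glands were above every other array. The share of all probe sets with this order was not computed. The difference was -0.37 (SE 0.19, 95% CI -0.77 to 0.04, limma adjusted p = 0.700).

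Hspb1 encodes a small heat shock protein that holds unfolded proteins and binds the actin cytoskeleton. Its signal in lesions ran from 8.46 through 9.42 to 9.95, and in normal glands it was 9.23, 9.85, 10.14 and 9.74. Lesion 1 alone accounted for the low end, since the other lesions started at 9.41. The difference of -0.35 (SE 0.24, 95% CI -0.87 to 0.17, limma adjusted p = 0.804) became -0.20 without that lesion.

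The signal of the probe set shared by Hspa1a, Hspa1b and Hspa1l, the stress-induced HSP70 genes and their testis-enriched relative, ran from 6.43 through 6.70 to 8.26 in lesions. It was 6.80, 6.58, 7.19 and 7.81 in normal glands. The highest array of all was lesion 4, a younger female, and the next highest was the younger male normal gland. The difference between groups was -0.20 (SE 0.34, 95% CI -0.93 to 0.54, limma adjusted p = 0.940), and without lesion 4 it was -0.42. Since the probe set does not resolve the 3 genes, nothing can be said of Hspa1b alone.

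Hspa8, Hsph1 and Hsp90aa1 had differences above 0, again uncalled. Hspa8, the HSP70 of unstressed cells (HSC70), ran from 11.95 through 12.02 to 12.22 in lesions and was 12.01, 11.51, 11.94 and 11.75 in normal glands. Lesion 4 lay above the rest of the lesions, normal replicate 1 lay among them, and the other 3 normal glands lay below every lesion. The difference was 0.23 (SE 0.10, 95% CI 0.02 to 0.45, limma adjusted p = 0.616). The 7 other single-symbol probe sets of Hspa8 gave differences from 0.15 to 0.21. Since near-identical copies of this gene could share signal, its identity is less certain than that of genes with a single such probe set.

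Hsph1, the HSP110 exchange factor that resets HSP70 between cycles, ran from 8.42 through 8.69 to 9.78 in lesions and was 8.65, 8.20, 8.66 and 7.99 in normal glands. Lesion 4 stood above the next lesion, at 9.06, and the normal glands of the males were the lowest arrays. The difference was 0.48 (SE 0.24, 95% CI -0.04 to 0.99, limma adjusted p = 0.690), and 0.32 without lesion 4. For Hsp90aa1, the inducible cytosolic HSP90, lesions ran from 10.96 through 11.18 to 11.55 and normal glands were at 11.16, 10.83, 11.27 and 10.85. Its difference was 0.17 (SE 0.12, 95% CI -0.10 to 0.44, limma adjusted p = 0.813), with lesion 4 again the highest array.

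The mitochondrial pair showed the narrowest spread of all once a single array was set aside. Hspd1, the HSP60 barrel, was at 11.27 in lesion 1 and between 11.85 and 11.94 in the other lesions, and normal glands were at 11.80, 11.85, 11.85 and 11.89. Hspe1, its HSP10 lid, was at 11.18 in lesion 1 and between 11.46 and 11.59 in the other lesions, with normal glands at 11.43, 11.58, 11.34 and 11.53. Apart from lesion 1, the ranges of lesions and normal glands overlapped for both genes, with 3 normal glands below the other lesions for Hspd1 and 2 for Hspe1. The differences were -0.04 for Hspd1 (95% CI -0.31 to 0.22, limma adjusted p = 0.972) and 0.009 for Hspe1 (95% CI -0.19 to 0.20, limma adjusted p = 0.994). A further single-symbol probe set of Hspd1 had a mean of 8.98 over all arrays, against 11.82 for the one used. Its difference was -0.04 (limma adjusted p = 0.976). Lesion 1 also had the lowest cortex marker mean. The part of cell composition in its low chaperonin signal was not tested.

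Hspa5 (BiP), the ER member of the HSP70 family and sensor partner of the unfolded protein response, ran from 10.70 through 10.90 to 11.30 in lesions and was 11.12, 11.09, 11.26 and 11.15 in normal glands. The younger lesions lay below all normal glands, as in 2.43% of all probe sets, while the older lesions were at the level of the normal glands. The difference over all arrays was -0.16 (SE 0.12, 95% CI -0.41 to 0.10, limma adjusted p = 0.817). Among the rats of 12 to 13 months it was -0.37 (SE 0.12, limma adjusted p = 0.747), and among those of 21 to 24 months it was 0.11 (SE 0.12, limma adjusted p = 0.985).

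**Figure D2:**
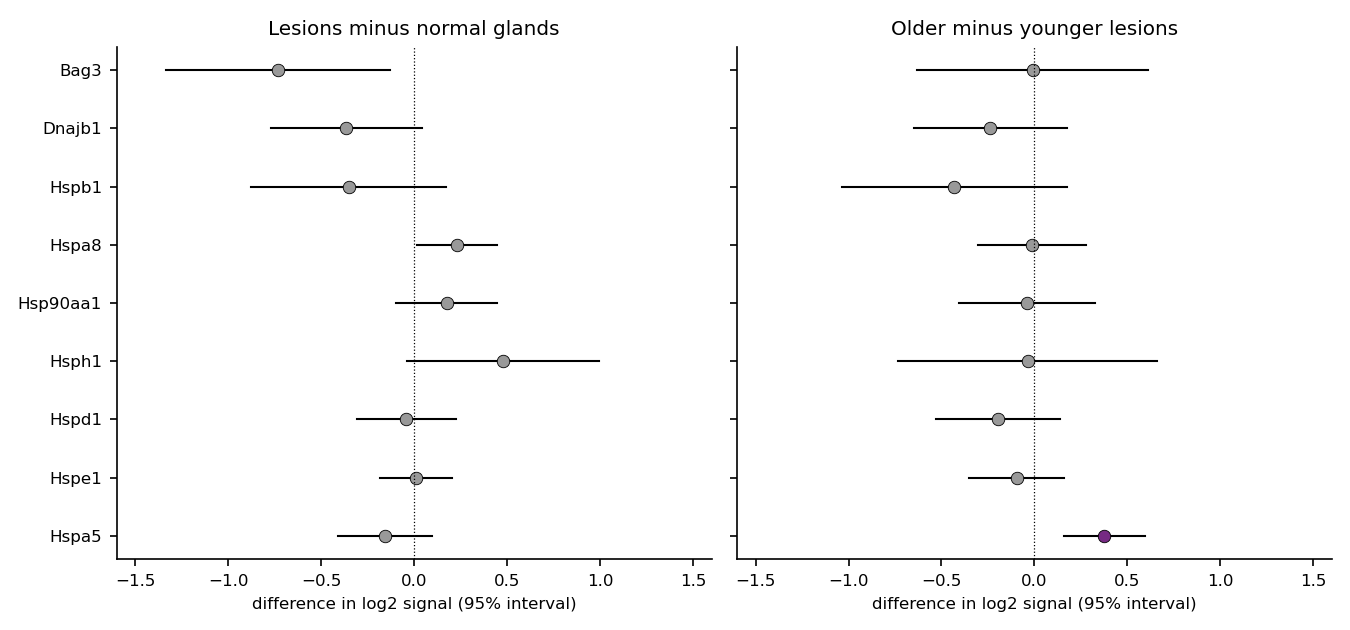
Difference in log2 signal (x axis) of each measured gene, lesions minus normal glands (left) and older minus younger lesions (right), with bars for 95% confidence intervals from limma; a purple point marks a gene whose groups do not overlap. No gene is called in either comparison, and Hspa5 in the age comparison, at 0.37, is the only one whose groups do not overlap.

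Of the 9 genes, only Hspa5 had values that did not overlap between older and younger lesions. Its log2 signal was 11.26, 11.30 and 11.07 in the older lesions and 10.89, 10.70, 10.85 and 10.90 in the younger ones. Every older lesion was above every younger one, which held for 3.04% of all probe sets, and 4.55% had every older lesion below. Beside these shares, 1 such gene among 9 is not read as a trait of these genes. The difference was 0.37 (SE 0.10, 95% CI 0.16 to 0.59) and was not called (limma adjusted p = 0.341); 3 of 29214 probe sets, 0.0103%, were called in this comparison. Leaving out each array in turn kept the difference between 0.33 and 0.44. The other 8 genes overlapped between the ages and lay below 0, from -0.43 for Hspb1 (SE 0.27, limma adjusted p = 0.647) to -0.01 for Bag3 (95% CI -0.63 to 0.61, limma adjusted p = 0.995). For most of them this direction was not stable: the 7 other probe sets of Hspa8 lay above 0, and leaving out 1 array brought Hspa8, Hsp90aa1, Hsph1, Bag3, Hspd1 and Hspe1 above 0. Hspb1 and Dnajb1 stayed below 0 in the alternatives run. The difference of Hspb1 was -0.09 without lesion 1.

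Normal glands did not repeat this pattern for Hspa5: the older ones were at 11.12 and 11.09 and the younger at 11.26 and 11.15, a difference of -0.10 (SE 0.13). The age difference in lesions minus that in normal glands was 0.48 (SE 0.16, 95% CI 0.12 to 0.84, limma adjusted p = 1.00), so the ages were not shown to differ between the tissues. With 2 glands per age, the difference between older and younger normal glands was -0.99 for Bag3 (SE 0.36) and -0.61 for Dnajb1 (SE 0.24). Neither was called (limma adjusted p = 1 for both), and 0% of probe sets were called in either of these comparisons. The shared Hspa1 probe set followed the same order, with -0.81 (SE 0.46) between older and younger normal glands. Hspa5 and Hspd1 also had both older glands below both younger ones. How many of all probe sets did so was not computed, so this order is given as a description.

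Other ER chaperones were examined beside Hspa5 through a list of 28 ER chaperones and unfolded protein response genes, of which 26 were measured. In older against younger lesions none of the 26 was called, and 20 lay above 0 with a median of 0.18 (all genes, -0.007). In 10 of the 26, Hspa5 among them, every older lesion lay above every younger one, and in 2 every older lesion lay below; over all 14506 genes these counts were 533 and 740. Other chaperone lists also lay above 0. The HSP40 list, which shares genes with the ER list, had a median of 0.18 with 18 of 26 above 0. In 3 of its genes every older lesion lay above every younger one, and in 1, Dnajc15, every older lesion lay below. The CCT and prefoldin list had 12 of 12 above 0 (median 0.09). The mitochondrial list had a median of -0.17, with 3 of 12 above 0. The 10 genes of the ER list were Hspa5, Hsp90b1, Calr, Canx, Pdia3, Pdia6, Sdf2l1, Dnajb9, Manf and Creld2, named here after their values were seen. They comprise the ER HSP90 (Hsp90b1), the lectin chaperones calreticulin and calnexin, disulfide isomerases and cofactors of BiP.

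Sdf2l1, a cofactor of BiP, had the largest of these differences. Its signal was 6.68, 6.16 and 5.94 in the older lesions and 5.70, 5.61, 5.44 and 5.49 in the younger ones. The older lesions were spread more widely than the younger ones, with lesion 1 the highest, and the groups did not overlap. The difference was 0.70 (SE 0.17, 95% CI 0.32 to 1.08, limma adjusted p = 0.314). Hsp90b1 was at 11.26, 11.34 and 11.04 in older and at 10.80, 10.84, 10.93 and 10.90 in younger lesions, a difference of 0.35 (SE 0.10, limma adjusted p = 0.377), close to that of Hspa5.

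Of the other genes of the list, Herpud1, which serves the degradation of ER proteins, was below in every older lesion (difference -0.85, SE 0.29, limma adjusted p = 0.428), as was Ppp1r15a, which reverses the block of translation under stress (difference -0.42, SE 0.14, limma adjusted p = 0.422). The transcription factors Atf4, Atf6, Xbp1 and Ddit3 overlapped between the ages. Against normal glands, the ER list had a median of -0.06 in lesions, with 11 genes above 0 and 15 below.

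**Figure D3:**
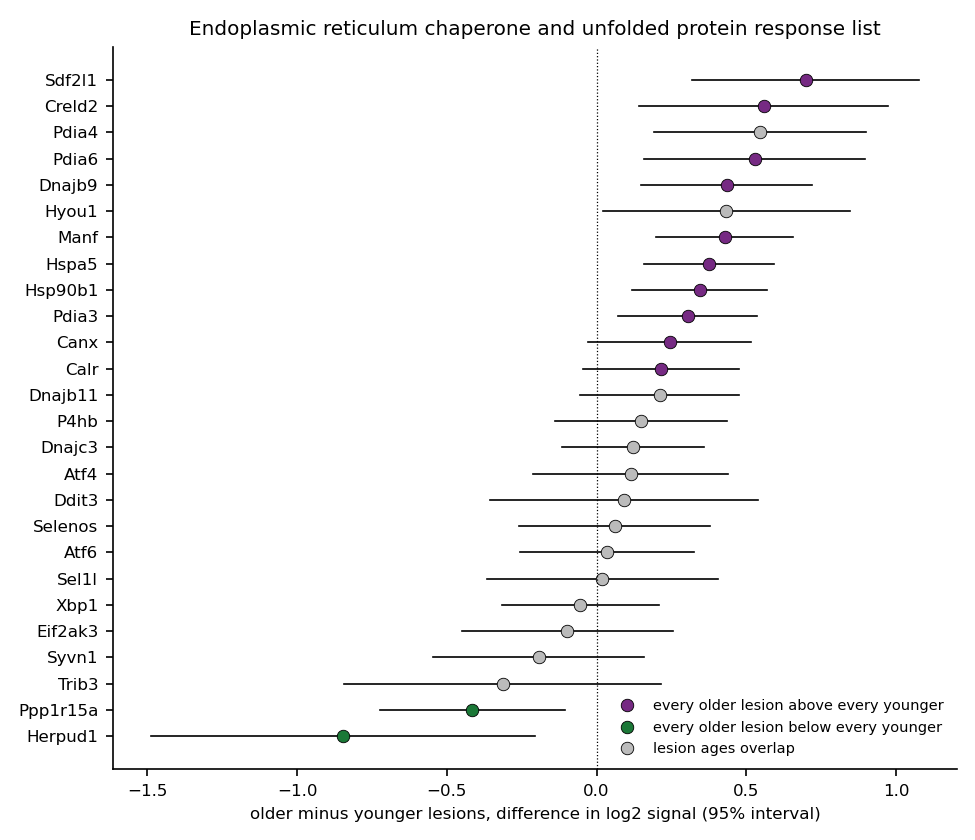
Difference in log2 signal between older and younger lesions (x axis) for the 26 measured genes of the ER list, with 95% confidence intervals; purple points are genes with every older lesion above every younger one, green points those with every older lesion below. The chaperones and disulfide isomerases sit to the right, led by Sdf2l1 at 0.70, and Herpud1 at -0.85 is the leftmost.

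Markers of cell type also differed between older and younger lesions, though none of them was called. Of 13 measured chromaffin cell markers 11 lay above 0 in older lesions (median 0.44), and the mean over the list was 10.23 to 10.88 in the older and 9.40 to 10.13 in the younger lesions. All 11 measured adrenal cortex markers lay below 0 (median -0.66), with list means of 8.90 to 10.35 in older and 10.26 to 10.60 in younger lesions. Of 7 measured neutrophil markers 5 lay above 0 (median 0.15), and the mean over the list was 4.82 to 5.35 in older lesions and 4.27 to 4.57 in younger ones. S100a8 (difference 2.50, limma adjusted p = 0.247) and S100a9 (2.44, limma adjusted p = 0.129) were far above the other 5 markers. Those ran from -0.39 to 0.34. Of 7 measured adipocyte markers 6 lay below 0 in older lesions (median -0.51). The red blood cell list had 4 of 4 above 0 (median 0.26) and the smooth muscle and pericyte list 5 of 7 (median 0.25). The endothelial, fibroblast, macrophage, lymphocyte, Schwann and sustentacular, and liver and kidney lists had medians from -0.09 to 0.11. Among the Schwann and sustentacular markers, S100b was below in every older lesion (difference -1.41, limma adjusted p = 0.335). Between older and younger normal glands, 13 of 13 chromaffin markers lay above 0 (median 0.15) and 9 of 11 cortex markers below (median -0.32). The part of cell composition in the order of Hspa5 and the ER chaperones was not tested.

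The wider chaperone families gave no called gene in the comparison of lesions and normal glands. The HSP70 and HSP110 list (12 measured of 15) had a median of 0.006, the HSP90 list (4 of 4) -0.04, the HSP40 list (26 of 29) 0.002 and the small heat shock proteins (10 of 10) -0.03. The co-chaperones (22 of 24) had a median of 0.11, the mitochondrial chaperones and proteases (12 of 15) -0.05 and the CCT chaperonin with prefoldin (12 of 14) 0.03. A list of 23 genes known to be induced through Hsf1, 18 of them measured, had a median of 0.10 with 12 genes above 0. These lists overlap with each other and contain the 9 genes.

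Single members of these families separated the groups without being called. Over all probe sets, 0.479% had every lesion above every normal gland and 0.695% had every lesion below. Hsf1 itself, the activator of the heat shock response, was at 8.30 to 8.84 in lesions and at 7.88, 8.12, 8.27 and 8.14 in normal glands, so that every lesion was above every gland (difference 0.31, SE 0.12, limma adjusted p = 0.511). Dnajb4, an HSP40 close to Dnajb1, was at 7.86 to 8.58 in lesions and at 8.97, 8.72, 9.05 and 8.75 in normal glands, with every lesion below (difference -0.67, SE 0.14, limma adjusted p = 0.220). Fkbp5, an HSP90 co-chaperone induced by glucocorticoids, had a difference of 0.63 (SE 0.23, limma adjusted p = 0.517) with overlapping values.

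Immediate early genes, which respond to a stimulus within minutes, are given on the same arrays. This list was chosen with earlier results of these data known. What its signal says of the tissue at collection was not tested. Of 23 measured members of that list 7 were called, all lower in lesions (Egr1, Fos, Junb, Nr4a2, Klf4, Atf3 and Ccn1). Across the array 0.065% of probe sets were called. In all, 20 of the 23 lay below 0 and 3 above, the highest at 0.42, and the list's median was -0.99. For 11 of them every lesion lay below every normal gland, as in 0.695% of all probe sets. The mean over the list was 6.54 to 6.73 in lesions and 7.675 to 8.002 in normal glands, without overlap. The mean over the 9 chaperone genes was 10.12 to 10.59 in lesions and 10.21 to 10.53 in normal glands, with overlap. Ppp1r15a, itself induced quickly by stress, went with the immediate early genes: it was at 6.58 to 7.41 in lesions and at 7.78, 7.80, 8.57 and 8.51 in normal glands. Its difference of -1.27 (SE 0.20) just missed the threshold (limma adjusted p = 0.0527). The metallothionein Mt2A, induced by metals and glucocorticoids, also lay lower in every lesion (difference -0.70, SE 0.14, limma adjusted p = 0.198). The 2 lists that hold it were mixed, with no gene called. Of 13 oxidative and metal stress genes 4 lay above 0 (median -0.13). Of 8 glucocorticoid receptor targets 3 lay above 0 (median -0.35), the highest being Fkbp5 at 0.63.

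**Figure D4:**
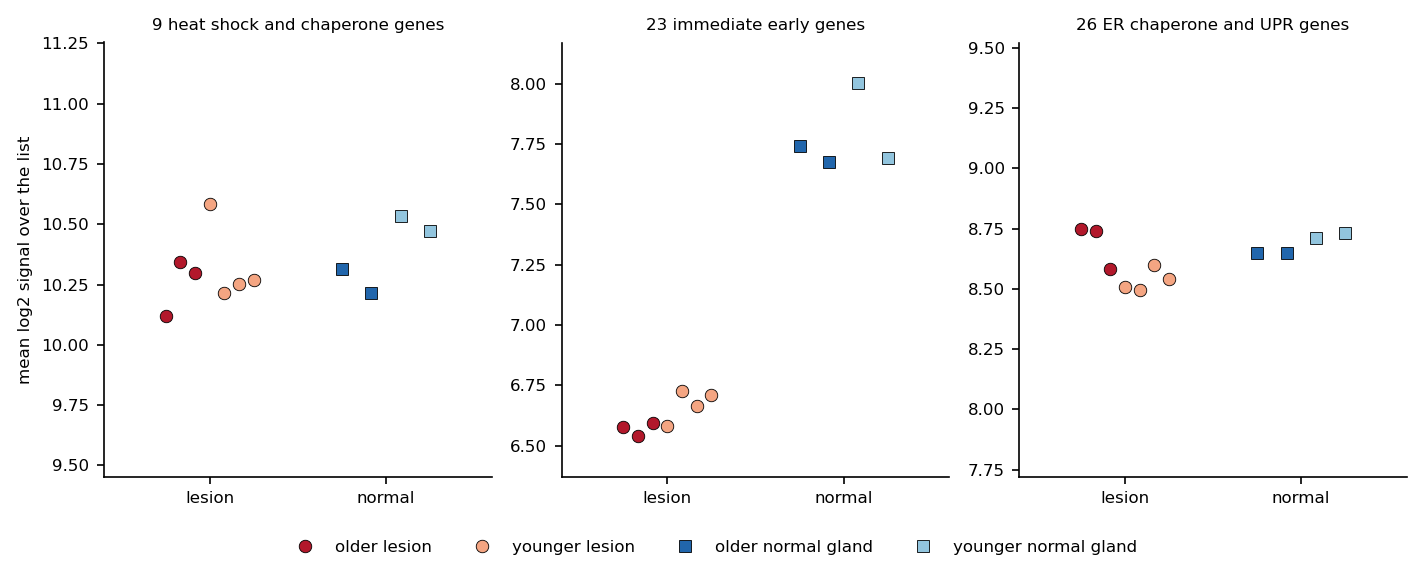
Mean log2 signal (y axis, each panel spanning 1.8 log2 units) over the 9 measured heat shock and chaperone genes, 23 immediate early genes and 26 ER chaperone and unfolded protein response genes on each array; symbols as in the plot of single genes. The immediate early means of lesions, 6.54 to 6.73, lie below those of all normal glands, whereas the chaperone means overlap.

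Across arrays the genes did not move as a single block. Over the 36 pairs of the 9 genes, Pearson's r ran from -0.40 to 0.82 with a median of -0.05, and 16 pairs were above 0. No pair passed the permutation test after adjustment over the 36 pairs (two-sided), and 6 had an unadjusted p under 0.05. The highest values not tied to lesion 1 joined Hspa8, Hsp90aa1 and Hsph1. Hspa8 and Hsp90aa1 correlated at r = 0.81 (permutation p = 0.00267, adjusted 0.0590; rho = 0.58, permutation p = 0.0662, adjusted 0.596; n = 11). Without normal replicates 2 and 4, the 2 arrays farthest from the median of Hspa8, r was 0.68, and within the 7 lesions it was 0.79.

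Hsp90aa1 and Hsph1 correlated at r = 0.81 (permutation p = 0.00328, adjusted 0.0590; rho = 0.63, permutation p = 0.0449, adjusted 0.538), with r = 0.52 without lesion 4 and normal replicate 2, the arrays farthest from the median of Hsp90aa1, and r = 0.63 without lesion 4. Without lesion 1 the pair reached r = 0.85 (permutation p = 0.00203, adjusted 0.0365) and the pair of Hspa8 and Hsp90aa1 r = 0.86 (permutation p = 0.000760, adjusted 0.0274), and these 2 pairs passed the threshold. Hspa8 and Hsph1 correlated at r = 0.77 (permutation p = 0.0140, adjusted 0.161; rho = 0.68, permutation p = 0.0254, adjusted 0.538), and at 0.83 without the 2 farthest arrays. Lesion 4 was the highest array for all 3 genes.

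The tie between the mitochondrial partners rested on a single array. Hspd1 and Hspe1 correlated at r = 0.82 (permutation p = 0.0249, adjusted 0.161; rho = 0.26, permutation p = 0.434, adjusted 0.869), but at 0.22 without lesion 1. The same held for Hspb1 with Hspd1, at r = 0.80 (permutation p = 0.0268, adjusted 0.161; rho = 0.37, permutation p = 0.263, adjusted 0.789) and at 0.19 without lesion 1. Bag3 and Dnajb1 behaved in the opposite way, with r = 0.45 (permutation p = 0.168, adjusted 0.642; rho = 0.22, permutation p = 0.517, adjusted 0.887) over all arrays and 0.75 without lesion 1 (permutation p = 0.0143, adjusted 0.172). This positive value for Bag3 and Dnajb1 did not hold within the lesions, where r was -0.60. With the group means subtracted it was 0.19, and leaving out each array in turn it ran from 0.03 to 0.75. The shared Hspa1 probe set went most closely with Bag3, at r = 0.63 and rho = 0.76 over all arrays and r = 0.86 without lesion 4, values given as a description.

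**Figure D5:**
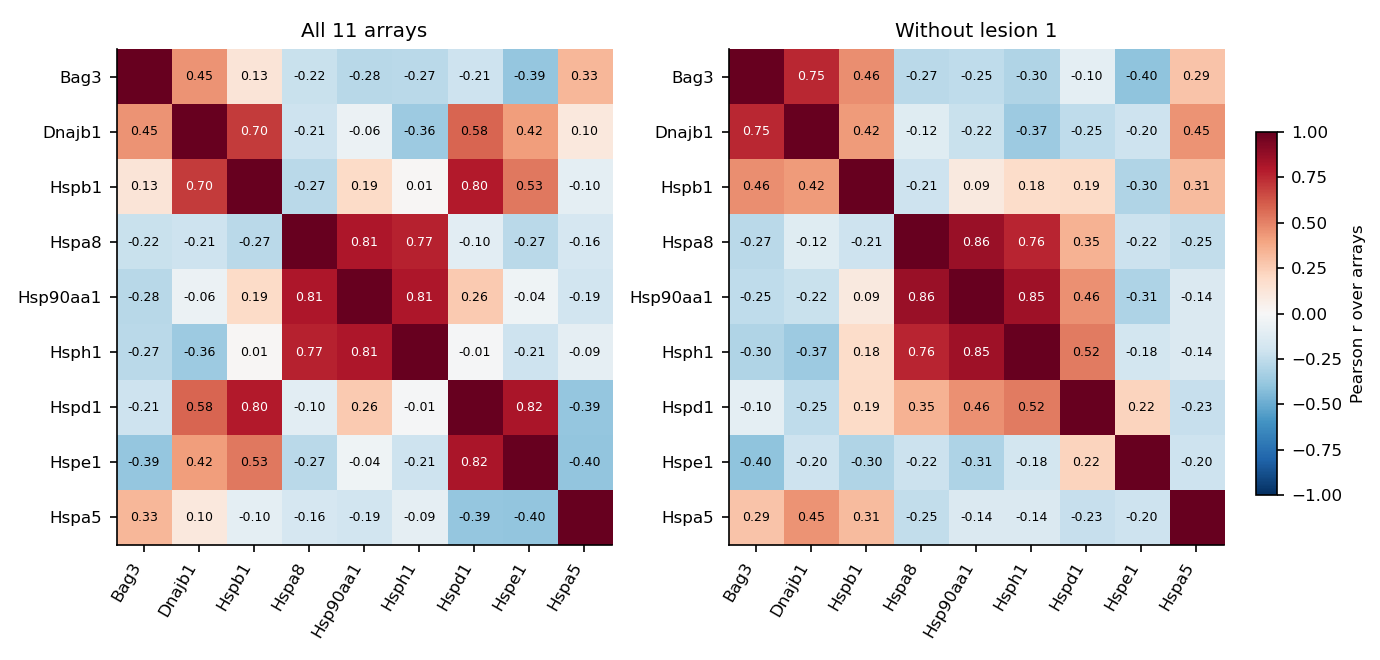
Pearson's r over arrays for each pair of the 9 measured genes, with all 11 arrays (left) and without lesion 1 (right); red is positive, blue negative. The block of Hspa8, Hsp90aa1 and Hsph1 keeps its colour in both panels, and the value for Hspd1 with Hspe1 goes from 0.82 to 0.22.

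The genes most like a member over the 11 arrays, of 14497 compared, are given by Pearson's r as a description. For Hspa5 they were Ppp2r1b (0.92), Pdia6 (0.90), Eif4a2 (0.89), Jmjd1c (0.89) and Cct8 (0.88), and without the 2 arrays farthest from the median r stayed between 0.76 and 0.90. Pdia6 is an ER disulfide isomerase and Cct8 a subunit of the cytosolic CCT chaperonin. For Hspd1 they were Gpc4 (0.97), Mgst1 (0.97), Gsto1 (0.97), Cyp11a1 (0.97) and Phyh (0.96). Cyp11a1 makes the first step of steroid synthesis in mitochondria of the cortex. Without lesions 1 and 4, the arrays farthest from the median of Hspd1, these r values lay between 0.15 and 0.71. They fell least for Gpc4 (0.71) and Cyp11a1 (0.61). Lesion 1 deviated from the mean of Hspd1 by -0.554 and lesion 4 by 0.118. The r values without lesion 1 alone were not computed.

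For Hsph1, looked at after the values were seen, the nearest genes were Stip1 (0.93), Tmem163 (0.92), C2cd6 (0.90), Or1j13 (0.90) and Hspb8 (0.88). Stip1 encodes the adaptor (HOP) that joins HSP70 to HSP90, and its rank correlation with Hsph1 was 0.97. Without lesion 4 and normal replicate 4, the arrays farthest from the median, r was 0.83 for Stip1, 0.68 for Tmem163, 0.73 for Hspb8, 0.54 for C2cd6 and 0.44 for Or1j13. For Bag3, likewise looked at later, they were Pth2r (0.92), Cwc25 (0.90), Fbxo32 (0.90), Sh3bgr (0.90) and Adra2b (0.90), and without normal replicates 3 and 4 r lay between 0.67 and 0.80. Signal was dim for Pth2r (2.98 to 3.72), C2cd6 (2.911 to 3.395) and Or1j13 (3.06 to 3.64), below the median of every array.

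Sex was compared with the tissue group in the model, and none of the 9 genes was called, as with 0% of all probe sets. Hsph1 had the largest difference, males minus females of -0.49 (SE 0.19, 95% CI -0.90 to -0.07, limma adjusted p = 0.999). Female lesions were at 8.85, 9.78 and 8.69 and male lesions at 9.06, 8.58, 8.42 and 8.57, and female normal glands at 8.65 and 8.66 against 8.20 and 7.99 in males. In the normal glands both females lay above both males, while in lesions the sexes overlapped, and without lesion 4 the difference was -0.30. Hspe1 was at 0.17 (SE 0.07, 95% CI 0.003 to 0.33, limma adjusted p = 0.999). The sex difference in lesions minus that in normal glands called none of the 9 genes and 0% of probe sets, with Bag3 the farthest from 0 at -0.81 (SE 0.52, limma adjusted p = 0.842).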

How the data were processed

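Total RNA was amplified with a kit for small inputs and hybridised to one-colour arrays, per the labels' protocols. Per the submitters' processing notes, the authors made the values with RMA (Affymetrix Expression Console, version 1.3.0.187) and deposited them as log2 signal for each probe set. The options of that step and the genome build behind the probes were not stated in the sources used here. No further normalization was applied. Of 29214 probe sets, 15310 had 1 gene symbol, 323 several and 13581 were unlisted. The annotation does not mark array controls, so all probe sets were tested.

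Each difference came from a two-sided limma test (version 3.58.1, R 4.3.3). A probe set was called where its p, adjusted by Benjamini-Hochberg over the whole table, was under 0.05. Group alone was fitted for lesions against normal glands, group by age class (21 to 24 against 12 to 13 months) for age, and group with sex for sex. Interactions used 4-cell models over all 11 arrays. Correlations used 100000 permutations (Python 3.11.15). The procedures were tested on simulated data. Alternatives changed normalization, filters, eBayes settings, weights, covariates, subsets and single arrays.

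The members and the lists were chosen with earlier results of these data known. The rule for names took all measured members, called genes and up to 2 genes with the largest difference per list, and the 5 genes most like Hspa5 and Hspd1. The planned likeness to Hspa1b could not be computed, and Bag3 and Hsph1 were added after seeing the data. Genes named in the age comparison outside the rule were chosen after their values were seen. Precision is limited by the number of arrays, which carry no read depth. Promoters came from RefSeq (GRCr8), with no coordinates of probe sets used. Figures were drawn with matplotlib 3.10.9.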

Additional observations from a re-analysis of the deposited data

Results flagged for a closer look

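Within the 7 lesions, 4 of the 9 measured genes and the shared Hspa1 probe set had an array set apart from the rest by more than Dixon's 95% critical value (0.568 for 7 samples). Of 20 groups tested, 5 were marked. Chance marks about 1 in 20 where groups are independent, which these are not, since they share arrays. Lesion 1 held 3 of the marks and lesion 4 held 2. Lesion 1 was the lowest for Hspd1 at 11.27 (others 11.85 to 11.94), for Hspe1 at 11.18 (others 11.46 to 11.59) and for Hspb1 at 8.46 (others 9.41 to 9.95). Lesion 4 was the highest for Hspa8 at 12.22 (others 11.95 to 12.05) and for the shared Hspa1 probe set at 8.26 (others 6.43 to 7.11). No array of the normal glands was marked.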

How the results depend on the processing

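The count of members called was 0 in 127 of 127 alternatives, so no choice of normalization, filter, model or subset brought a member past the threshold in any of the 6 comparisons, and the smallest adjusted p of a member was 0.232. Of 616 alternatives for single values, 41 turned the sign of a difference, all of them uncalled. For Hspe1, lesions minus normal glands, these were renewed quantile normalization (-0.0313), sex in the model (-0.00311), older (-0.0793), male (-0.00200) and female arrays only (-0.00433). For Hspd1 they were array weights (0.00598), younger arrays (0.0205) and male arrays only (0.0120), for Hspa5 older arrays only (0.107) and for the shared Hspa1 probe set female arrays only (0.377). In older minus younger lesions, array weights gave 0.00165 for Hspa8, 0.0314 for Hsp90aa1 and 0.158 for Hsph1, and sex in the model gave 0.0131 for Hspa8, 0.0455 for Hsph1 and 0.0337 for Bag3. The 7 other probe sets of Hspa8 gave 0.0890, 0.0973, 0.0400, 0.0383, 0.0258, 0.0287 and 0.0321. Leaving out each array in turn, lesions minus normal glands ranged from -0.0335 to 0.0580 for Hspe1, from -0.0631 to 0.0489 for Hspd1 and from -0.42 to 0.0446 for the shared Hspa1 probe set. Older minus younger lesions ranged from -0.13 to 0.0723 for Hsp90aa1, from -0.30 to 0.02 for Hspd1, from -0.16 to 0.0255 for Hspe1, from -0.32 to 0.21 for Bag3, from -0.18 to 0.27 for Hsph1 and from -0.0450 to 0.0443 for Hspa8. The count of member pairs past the threshold was 0 to 2 when each array was left out, the 2 arising without lesion 1. The cause of these changes was not tested. With the replicate number as a block (replicate block), Hspe1 was at -0.0260 and Bag3 at -0.64, with 0 members called and 3 probe sets called over the table, against 19. Deviations from the group means of same-numbered arrays correlated at 0.18, 0.15, 0.07 and 0.21. For the 12 differently numbered pairs of these numbers r ran from -0.24 to 0.14 (median 0.0002), and 4 of 4 lesions correlated best with the normal gland of their number. This is a hint from the data, and 1 pair was under 0.1. The labels do not say that the numbers pair animals, and same-numbered arrays came from different rats, mutant and wild-type. Numbers 1 and 2 joined arrays of the same sex and age class. Number 3 joined a lesion of a male of 21 months and a gland of a female of 12 months. Number 4 joined a female of 13 months and a male of 12 months. The deviations were not adjusted for age or sex, whose part was not tested. The fit without the block was kept. The alternatives for the shared Hspa1 probe set and the ER list were added after seeing the data.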
